A study of Mus musculus with 6 samples.

Results

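The 10 genes described here are Lpl, Gpihbp1, Lmf1, Angptl4, Cd36, Slc27a1, Fabp4, Acsl1, Vldlr and Lrp1. They encode lipoprotein lipase, its partners and an inhibitor, lipoprotein receptors, and proteins that take up, bind or activate fatty acids. They were chosen by name, as genes of lipoprotein lipase and fatty acid uptake, from the 54532 Ensembl identifiers of the count table, and all 10 passed the filter on low counts. The tissue was epididymal fat, a visceral depot, of male C57BL/6J mice, with 3 RNA-Seq samples on a normal diet (ND) and 3 on a high-fat diet (HFD). The ND held 4.5% fat and the HFD 60% fat, and both were begun at 4 weeks of age and given for 16 weeks. All samples are labelled as untreated, and no transgene or deletion is named for either group. Since the RNA was taken from whole tissue, a gene expressed in fewer cells and a gene with less RNA per cell cannot be told apart. The labels number the samples within a diet but do not say whether each is a separate mouse, so the p-values measure only the spread between these samples, which may be technical.

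Fat cells cannot take up the triglycerides of chylomicrons and very low density lipoproteins whole. Lipoprotein lipase is made by the adipocyte, matured in its endoplasmic reticulum and carried across the endothelium to the capillary lumen, where it splits triglycerides into fatty acids. The released fatty acids pass into the cell with the help of membrane proteins, are bound in the cytosol and are joined to coenzyme A before they are stored or burned. Macrophages also express several of these genes, among them Lpl, Cd36, Lrp1 and, at lower levels than adipocytes, Fabp4.

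The count totals were between 16996896 and 18859320 per library, and the floor of 3 counts came to at most 0.181 CPM (counts scaled to library size, corrected by edgeR's TMM factors). All members lay far above that floor, since the lowest count of any of them was 302, for Lmf1 in HFD replicate 1. Adipoq, Plin1 and the rest of a list of 12 adipocyte markers, none of them at 0, summed to 26989 to 34168 CPM on ND. That sum was 8135 to 22095 CPM on HFD, and HFD replicate 3 was the lowest. The 12 macrophage markers summed to 1925 to 2034 CPM on ND and to 4096 to 8931 CPM on HFD, and HFD replicate 3 was the highest. In ND replicate 3, 8 markers of duct and ciliated epithelium summed to 254 CPM, against 10.8 to 13.6 CPM in the other libraries. In these marker sums the 2 libraries stand apart from their groups. Over the genes tested, however, ND replicates 1 and 3 were the most alike ND pair. Their chi-square per gene was 19.1, against 33.6 for ND replicates 1 and 2 and 51.1 for ND replicates 2 and 3. Both HFD pairs that hold HFD replicate 3 were less alike than HFD replicates 1 and 2. The values were 64.8 with replicate 1 and 168 with replicate 2, against 40.8.

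Promoter sequence is shown for Lrp1 and Cd36, the members with the largest log2 fold changes among those whose HFD values all lay above the ND values. The nuclear receptor PPARγ binds with RXR to a direct repeat of AGGTCA spaced by a single base, and Cd36 is known as one of its targets. Each sequence is the 250 bases before the start given by RefSeq for GRCm38.p6, 5′ to 3′ on the strand of the gene, with matches to the searched letters in capitals. Lrp1 lies at chr10:127621149-127621398 on the minus strand and Cd36 at chr5:17835897-17836146 on the minus strand. The Lrp1 sequence lies directly before the gene span of GENCODE. The Cd36 sequence lies inside its span, chr5:17781690-17888801, so it belongs to an internal start, and the outer 5′ end of Cd36 was not searched.

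Lrp1: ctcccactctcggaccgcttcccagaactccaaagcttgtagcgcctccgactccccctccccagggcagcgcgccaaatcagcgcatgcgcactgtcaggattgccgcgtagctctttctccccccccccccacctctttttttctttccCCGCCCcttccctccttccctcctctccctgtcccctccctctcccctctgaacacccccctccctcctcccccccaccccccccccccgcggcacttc

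Cd36: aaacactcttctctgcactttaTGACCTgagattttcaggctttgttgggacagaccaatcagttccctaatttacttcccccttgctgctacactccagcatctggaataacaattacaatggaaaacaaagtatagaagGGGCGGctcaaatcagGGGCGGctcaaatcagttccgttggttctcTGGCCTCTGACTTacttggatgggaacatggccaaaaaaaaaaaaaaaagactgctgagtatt

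The letters searched, on both strands and in windows of 300 bases that run 50 bases past the start, were AGGTCA, known as a nuclear receptor half-site, TATAAA, the core of the TATA box, and GGGCGG, the core of the GC box. Also searched was the direct repeat described above, with any base between its copies, exact or with at most 2 mismatches, which overlaps the half-site search. In the Lrp1 window GGGCGG was found 1 time, on the other strand. In the Cd36 window AGGTCA was found 1 time on the other strand, GGGCGG 2 times within a repeated stretch, and the direct repeat 1 time with at most 2 mismatches on the other strand. Of the 32851 windows of the table, 16.3% held AGGTCA, 13.6% TATAAA, 35.7% GGGCGG, 0.0396% an exact direct repeat and 3.86% one with at most 2 mismatches. A window was matched for 6 of the 10 members, 10 windows in all, of which 7 held GGGCGG, 1 held AGGTCA, 0 held TATAAA, and 1 held the direct repeat with at most 2 mismatches. Lpl, Gpihbp1, Angptl4 and Fabp4 were not matched. The matches describe letters only.

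Of the 10 members, 1 was higher on HFD and 0 were lower by edgeR's quasi-likelihood test at an adjusted p under 0.05. Among the 15751 genes tested, 9.85% were higher and 6.04% lower, together 15.9%, so the share of members called was close to the background. At an unadjusted p under 0.05, 4 members passed, Lmf1 with lower values and Cd36, Vldlr and Lrp1 with higher ones, against 34.0% of all genes. Members whose HFD values did not overlap their ND values numbered 3 with higher values, Cd36, Vldlr and Lrp1, and 2 with lower values, Lpl and Lmf1. No overlap was seen in 40.9% of all genes, 21.7% with higher and 19.1% with lower values. By DESeq2's Wald test, 2 members were higher, Lrp1 and Cd36, and 0 lower, against 11.2% and 8.81% of the genes that tool tested. The median log2 fold change was -0.01 over the members and 0.01 over all genes tested. Positive and negative fold changes were equally many, 5 each, and the members are described by their roles in what follows.

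**Figure D1:**
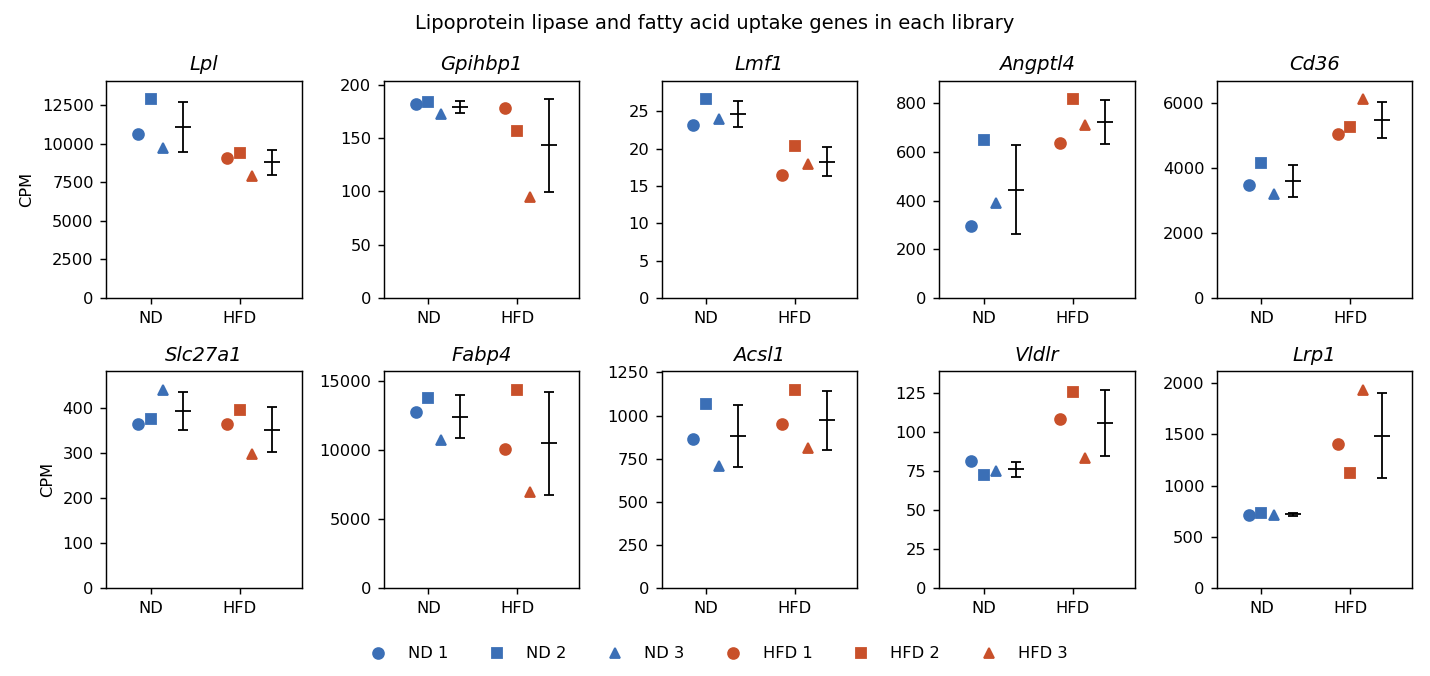
Level of each of the 10 genes in CPM (vertical axis, from 0) in the 3 ND libraries (blue) and 3 HFD libraries (orange), with the mean and SD of each diet in black. Lrp1 lies between 712 and 737 CPM on ND and between 1124 and 1937 CPM on HFD, while Fabp4, Gpihbp1, Slc27a1, Acsl1 and Angptl4 overlap between the diets.

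Lpl (chr8:68880491-68907448 of GRCm38, the build of all gene coordinates here, plus strand), the lipase itself, measured 10648, 12885 and 9729 CPM in ND replicates 1 to 3 and 9092, 9400.4 and 7882 CPM in HFD replicates 1 to 3. Every HFD library lay below every ND library, by a small margin, and the means were 11087 ± 1624 CPM for ND and 8791 ± 803 CPM for HFD (SD, n = 3). The log2 fold change of -0.33 (standard error 0.26, 95% interval -0.93 to 0.26) did not pass the test, with an adjusted p of 0.395 from edgeR. A difference of Lpl between the diets was thus not resolved with 3 samples each. The adipocyte marker sum differed more between the diets than Lpl did, as given above, and its part in the Lpl values was not tested. That sum is weighted to the most abundant markers. Taken singly, 4 of the 12 markers passed as lower and 1 as higher, with a median log2 fold change of -0.65.

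Gpihbp1 (chr15:75596628-75599481, plus strand) encodes the endothelial protein that carries the lipase to the capillary lumen and holds it there. Its ND values were 182, 184 and 173 CPM, nearly alike, and its HFD values were 178, 157 and 94.5 CPM. HFD replicate 1 sat among the ND libraries while HFD replicate 3 was 0.564 times the mean of the other HFD libraries, so the diets overlapped. The log2 fold change was -0.33 (standard error 0.23, edgeR adjusted p = 0.355) with all libraries and -0.12 (adjusted p = 0.596) without HFD replicate 3. In the same library the sum of the 12 endothelial markers was also lowest, at 904 CPM, against 1639 to 1817 CPM in the other HFD libraries and 1620.3 to 1915 CPM on ND. None of these markers was at 0, 0 of 12 passed the test and all 12 had a log2 fold change below 0, with a median of -0.36.

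Lmf1 (chr17:25579085-25662826, plus strand), the chaperone of the endoplasmic reticulum that the lipase needs to fold, was the member with the lowest level per length. Its levels were 23.2, 26.6 and 24.0 CPM on ND against 16.5, 20.4 and 17.9 CPM on HFD, without overlap. The log2 fold change of -0.43 (standard error 0.13, 95% interval -0.75 to -0.12) missed the threshold with an edgeR adjusted p of 0.0688, and without HFD replicate 2 it was -0.51 and passed (adjusted p = 0.0422).

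Angptl4 (chr17:33773750-33781830, minus strand) encodes a secreted inhibitor that unfolds the lipase, and it is induced by fatty acids and by fasting. ND replicate 2, at 649.7 CPM, was above HFD replicate 1, at 636 CPM, which is the only point at which the diets overlapped. The other ND libraries held 296 and 389 CPM and the other HFD libraries 817 and 713 CPM. The means were 445 ± 183 and 722 ± 90.9 CPM (SD, n = 3), and the log2 fold change of 0.70 (standard error 0.30, 95% interval -0.003 to 1.40) did not pass (edgeR adjusted p = 0.149). Angptl4 had the widest spread of any member on ND, with a coefficient of variation of 41.2%, against 12.6% on HFD.

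Cd36 (chr5:17781690-17888801, minus strand) encodes the scavenger receptor that takes up long chain fatty acids and, in macrophages, oxidised lipoproteins. It measured 3458, 4150.5 and 3202 CPM on ND against 5042, 5259 and 6108 CPM on HFD, so that all 3 HFD libraries were above all ND libraries. The means were 3603 ± 491 and 5469.9 ± 563 CPM (SD, n = 3), a ratio of 1.52. At 0.60 on the log2 scale (standard error 0.23, 95% interval 0.07 to 1.14) the edgeR test missed the threshold (adjusted p = 0.114), whereas DESeq2 gave 0.58 and passed it (adjusted p = 0.00597). Whether Cd36 is counted among the changed genes therefore depends on the tool. Its highest library, HFD replicate 3, was also the highest in macrophage markers and the lowest in adipocyte markers, and without it the log2 fold change was 0.50 (edgeR adjusted p = 0.192). The part of the macrophages in the Cd36 values was not tested.

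Slc27a1 (chr8:71568882-71587302, plus strand) encodes FATP1, a transport protein with acyl-CoA synthetase activity. Its values ran from 365 to 442 CPM on ND and from 299 to 396 CPM on HFD, which overlap, and the log2 fold change was -0.16 (standard error 0.17, edgeR adjusted p = 0.546), and -0.07 without HFD replicate 3.

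Fabp4 (chr3:10204088-10208576, minus strand), the cytosolic fatty acid binding protein of adipocytes, held 12760.0, 13765 and 10768 CPM on ND against 10109.8, 14385 and 6991 CPM on HFD. HFD replicate 2 was the highest of all 6 libraries and HFD replicate 3 the lowest, at 0.571 times the mean of the other HFD libraries. The log2 fold change was -0.24 (standard error 0.33, 95% interval -1.02 to 0.53, edgeR adjusted p = 0.641) and was -0.04 without HFD replicate 3. Fabp4 sits in a cluster of related genes on chromosome 3, with Fabp9 6.8 kb, Pmp2 20.2 kb, Fabp12 35.6 kb and Fabp5 187 kb away. Fabp9 and Pmp2 had at most 2 counts in any library and Fabp12 between 4 and 25. Fabp4 and Fabp5 thus supplied nearly all counts assigned in the cluster. Exons of Gm37389 on the same strand overlap 344 exonic bases of Fabp9 and 1224 of Pmp2. How reads in shared stretches were counted is not given, so the counts of Fabp9 and Pmp2 may understate their RNA.

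Acsl1 (chr8:46471037-46536051, plus strand), the main long chain acyl-CoA synthetase of adipocytes, ranged from 709.9 to 1067 CPM on ND and from 814 to 1151 CPM on HFD. The diets overlapped almost fully, and the log2 fold change of 0.14 (standard error 0.23, edgeR adjusted p = 0.692) was -0.02 without ND replicate 3. Exons of Acsl1 overlap those of Gm45244 on the opposite strand over 1039 bases, and the sources used here do not say whether counting used strand.

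Vldlr (chr19:27216484-27254231, plus strand) encodes the receptor that binds very low density lipoproteins next to the lipase and takes up their remnants. It measured 81.6, 72.2 and 74.9 CPM on ND, a narrow range, and 109, 126 and 83.1 CPM on HFD. HFD replicate 3 was only just above the highest ND library, and the other HFD libraries were clearly above it. The log2 fold change of 0.47 (standard error 0.16, 95% interval 0.09 to 0.86) missed the threshold (edgeR adjusted p = 0.0905) and, without HFD replicate 3, was 0.60 and passed (adjusted p = 0.0205).

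Lrp1 (chr10:127538161-127621148, minus strand) was the 1 member that passed. It encodes a large endocytic receptor of the lipoprotein receptor family that takes up apolipoprotein E-rich remnants and many protease complexes, in adipocytes, macrophages and fibroblasts alike. The ND libraries were nearly identical, at 712, 737 and 715 CPM, and the HFD libraries held 1403, 1124 and 1937 CPM. The means were 721 ± 13.4 and 1488 ± 413 CPM (SD, n = 3), a ratio of 2.06, or 1.04 on the log2 scale (standard error 0.23, 95% interval 0.50 to 1.59, edgeR adjusted p = 0.0269). The order of the HFD libraries, replicate 3 above 1 above 2, was also the order of the macrophage marker sums, which were 8931, 5259.8 and 4096 CPM in those libraries, and the part of macrophages in the increase was not tested. Of the 12 macrophage markers, 9 were higher and 0 lower, with a median log2 fold change of 1.44. All 8 markers of lipid-associated macrophages, among them Trem2 and Gpnmb, were higher, with a median of 5.57. Without HFD replicate 3 the log2 fold change of Lrp1 was 0.79 and passed (adjusted p = 0.0259). It kept its size but not the call without ND replicate 1 (adjusted p = 0.109), ND replicate 2 (0.0891), ND replicate 3 (0.0865) or HFD replicate 1 (0.0961).

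**Figure D2:**
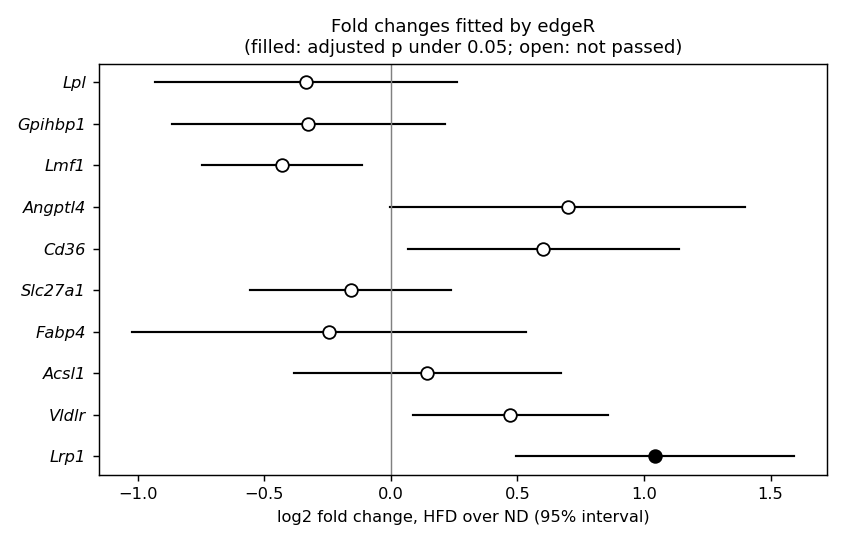
Log2 fold change of each member on HFD over ND (horizontal axis) by edgeR, with its 95% interval as a line. Only Lrp1, at 1.04, passed an adjusted p under 0.05 (filled point). The intervals of Lmf1, Cd36 and Vldlr also lie on 1 side of 0, and those of the other 6 cross it.

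The libraries within the HFD group did not vary alike for all members. Coefficients of variation on HFD ran from 9.13% for Lpl to 35.4% for Fabp4, and on ND from 1.86% for Lrp1 to 41.2% for Angptl4. HFD replicate 3 was the lowest HFD library for Lpl, Gpihbp1, Slc27a1, Fabp4, Acsl1 and Vldlr and the highest for Cd36 and Lrp1. In that library the adipocyte markers summed to 8135 CPM and the lipid-associated macrophage markers to 13511 CPM, against 161 to 167 CPM for the latter on ND. The sum of 8 adipocyte progenitor markers, by contrast, was 2278 to 2545 CPM on ND and 2336 to 2478 CPM on HFD.

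**Figure D3:**
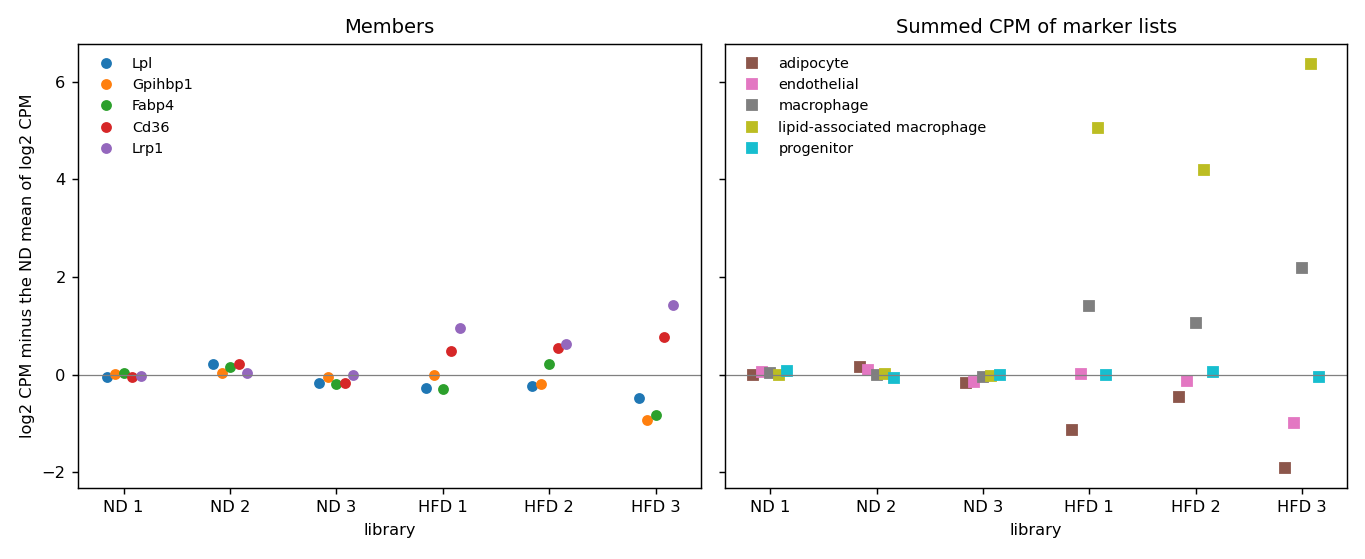
Log2 CPM minus the mean of the 3 ND libraries (vertical axis) in each library, for 5 members (left) and for the summed CPM of 5 marker lists (right). In HFD replicate 3 Gpihbp1 and Fabp4 are at their lowest together with the adipocyte and endothelial sums, and Lrp1 and Cd36 at their highest together with both macrophage sums.

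Levels of different genes can be set side by side only per length, and the deposited FPKM values (fragments scaled by gene length and library size) were used for that. On ND, Fabp4 was the most abundant at 2811 ± 367 FPKM (SD, n = 3), followed by Lpl at 1074 ± 165 and Cd36 at 1019 ± 146, which overlapped each other. Angptl4, at 137 ± 57.2 FPKM, overlapped Acsl1, at 85.3 ± 18.0, which overlapped Gpihbp1, at 71.3 ± 2.90, which overlapped Slc27a1, at 68.5 ± 6.63. Lrp1, at 41.3 ± 0.989 FPKM, Vldlr, at 7.68 ± 0.504, and Lmf1, at 1.85 ± 0.142, each lay below the member before without overlap. On HFD, Fabp4 was again first at 2349 ± 834 FPKM, now overlapping Cd36 at 1530 ± 155 (SD, n = 3). Lpl, at 843 ± 78.5 FPKM, lay below Cd36 in every HFD library, whereas on ND it lay above Cd36 within each library although their ranges overlapped. Lrp1, at 84.3 ± 23.2 FPKM, was eighth on ND and sixth on HFD, where it overlapped Acsl1, at 93.2 ± 16.4, and Slc27a1, at 60.8 ± 8.67. The remaining HFD levels were 221 ± 27.9 FPKM for Angptl4, 56.3 ± 17.2 for Gpihbp1, 10.6 ± 2.15 for Vldlr and 1.36 ± 0.146 for Lmf1. Every member took the same place with CPM per kilobase of exon.

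**Figure D4:**
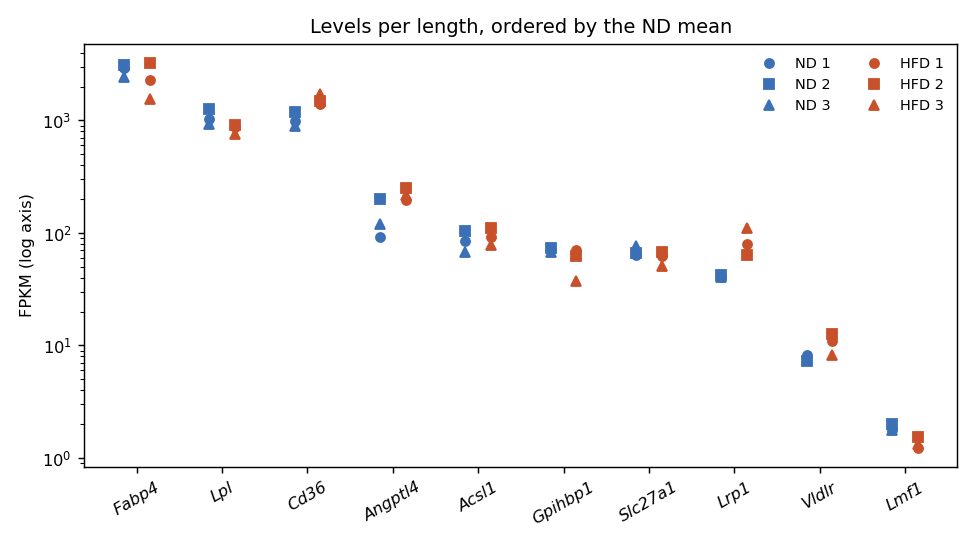
Level of each member in FPKM (vertical log axis) in each ND (blue) and HFD (orange) library, ordered by the ND mean. Fabp4, Lpl and Cd36 are the top 3 in both diets, and Lmf1, at 1.85 on ND and 1.36 on HFD, is the lowest.

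Ratios between genes within a library do not depend on the scaling between libraries. Angptl4 over Lpl, inhibitor over enzyme, was 0.0278, 0.0504 and 0.0400 on ND against 0.0699, 0.0869 and 0.0904 on HFD, in units of CPM over CPM. All HFD ratios were above all ND ratios although neither gene passed the test alone, and the mean log2 ratio differed by 1.10. An exact two-sided permutation test gave p = 0.1, adjusted to 0.175 over the 7 ratios computed, and 0.1 is the smallest value that 3 against 3 allows, so no ratio could pass. Vldlr over Lpl was likewise higher without overlap, by 0.78 on the log2 scale (exact permutation p = 0.1, adjusted 0.175). Gpihbp1 over Lpl differed by -0.05 (exact permutation p = 0.8, adjusted 0.9), with HFD values on both sides of the ND values. Against the mean log2 level of the 12 endothelial markers, Gpihbp1 differed by only 0.01 on the log2 scale (exact permutation p = 0.9, adjusted 0.9), with ratios of 1.46 to 1.66 on ND and 1.47 to 1.61 on HFD. Gpihbp1 was thus low together with the endothelial markers in HFD replicate 3. On ND it varied little, with a coefficient of variation of 3.21%, while the ratio rose from 1.46 in replicate 1 to 1.66 in replicate 3.

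The adipocyte genes Cd36, Fabp4 and Lpl were also set against the adipocyte markers. Relative to the mean log2 level of the 12 adipocyte markers, Cd36 was higher on HFD by 1.58 on the log2 scale and Fabp4 by 0.67, both without overlap (exact permutation p = 0.1, adjusted 0.175 for each). Lpl was higher by 0.64 with overlap (exact permutation p = 0.2, adjusted 0.28). HFD replicate 3 had the highest of all 3 ratios, and without it the differences were 1.05 for Cd36, 0.49 for Fabp4 and 0.28 for Lpl. Of the 12 adipocyte markers, 4 were lower by edgeR, Cfd, Retn, Adrb3 and Acvr1c, and 1, Lep, was higher, with a median log2 fold change of -0.65 over the list. Adipoq, Plin1 and Cidec did not pass (-0.52, -0.79 and -0.08). Macrophages express Lpl, Cd36 and Fabp4 too, and the share of either cell type in these ratios was not tested.

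By the root mean square difference of log2 CPM, each gene centred over the 6 libraries, the protein-coding genes most like Lpl were Fbxo8 (0.021), Ptcd3 (0.031), Tbc1d7 (0.038), Ubr3 (0.043) and Tmem70 (0.051), out of 13711 compared. The pattern of Lpl is a common one, since 174 genes lay within 0.1 of it. Those most like Lrp1 were Arpc2 (0.037), Ubtd1 (0.038), Rhog (0.045), Dennd4c (0.045) and Rhoc (0.046), and 54 genes lay within 0.1. These likenesses over 6 libraries are a description.

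The wider pathway was followed in 79 other genes in 8 lists, of which 59 passed the filter. By edgeR, 6 were higher on HFD and 5 lower, which is 10.2% and 8.47% of those tested, close to the background shares given above. The median log2 fold change over the 59 genes was -0.24. These counts changed when any of several libraries was left out, which leaves 2 samples in that diet. Without ND replicate 1, ND replicate 2 or HFD replicate 1 no gene was higher, without ND replicate 3 there were 2, and without HFD replicates 2 and 3 there were 13 and 7. The lower genes numbered 2, 0 and 2 without ND replicates 1 to 3 and 1, 14 and 3 without HFD replicates 1 to 3.

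Among 16 tested partners and regulators of the lipase, 2 (12.5%) were higher and 4 (25%) lower, against 9.85% and 6.04% of all genes tested. The difference between these shares was not tested. Sel1l, which works with Lmf1 to bring the lipase out of the endoplasmic reticulum, measured 124, 138 and 119 CPM on ND against 184, 194 and 222 CPM on HFD (log2 fold change 0.66, adjusted p = 0.0204), opposite in sign to Lmf1. Sdc1, a heparan sulfate proteoglycan of the cell surface to which the lipase and remnants bind, rose from 28.5 ± 8.64 to 127 ± 72.2 CPM (SD, n = 3), with a log2 fold change of 2.15 (adjusted p = 0.0200). It was highest in HFD replicate 3, at 206 CPM, where the macrophage sum was highest too, and without that library the log2 fold change was 1.59 (adjusted p = 0.0212). Without the filter on low counts, the call of Sdc1 was lost (adjusted p = 0.0708). It was also lost without ND replicate 1 (adjusted p = 0.0546), 2 (0.0820) or 3 (0.0704) and without HFD replicate 1 (0.0651). Angptl8, which pairs with its relatives to inhibit the lipase after feeding, had 214, 36.1 and 16.3 CPM on ND against 3.93, 5.42 and 5.47 CPM on HFD. All HFD libraries were lower, but the ND libraries were far apart. The log2 fold change of -4.17 (adjusted p = 0.0302) shrank to -2.41 without ND replicate 1, where Angptl8 still passed (adjusted p = 0.0408), and it no longer passed without ND replicate 2 (0.0606) or without HFD replicate 1 (0.119), 2 (0.0561) or 3 (0.135). With all libraries the call was also lost by limma-voom (-3.36, adjusted p = 0.116), without the filter (0.169) and by limma on FPKM with a pseudocount of 1 (0.0521).

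A pair of apolipoproteins that hold back the lipase were also lower. Apoc1 fell from 116 ± 12.6 to 43.9 ± 17.8 CPM (SD, n = 3, log2 fold change -1.40, adjusted p = 0.0220). Apoc3 had only 23 to 45 counts on ND and 5 to 11 on HFD (log2 fold change -1.92, adjusted p = 0.0289, and 0.0662 without HFD replicate 3). Its HFD counts alone would not have passed the filter on low counts. Apoc2, the activator of the lipase, had 1 count in 1 library and 0 in the other 5. Exons of Gm44805 on the same strand overlap 646 of the 813 exonic bases of Apoc2. How reads in shared stretches were counted is not given, so these counts do not show that Apoc2 RNA was absent. Apoe, which directs remnants to Lrp1, measured 3949 to 4614 CPM on ND and 2472 to 4141 CPM on HFD (log2 fold change -0.52, adjusted p = 0.229). Pcsk5, a proprotein convertase, was lower as well (log2 fold change -0.85, adjusted p = 0.0446, and 0.0649 without HFD replicate 3) and was chosen for naming after its values were seen, since it completes the count of 4.

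Of the lipases of the same family, 2 of 8 could be tested. Lipg, endothelial lipase, was lower at 15, 12 and 18 counts on HFD against 41, 80 and 56 on ND (log2 fold change -1.89, adjusted p = 0.0220), and Pla1a, a phosphatidylserine-specific phospholipase, was higher at 73.6 ± 15.7 against 44.4 ± 4.17 CPM (SD, n = 3, log2 fold change 0.73, adjusted p = 0.0300). Per length, Lpl stood at 754 to 1254 FPKM over the 6 libraries and Pla1a at 20.2 to 45.5 FPKM.

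The fatty acid transport proteins and their membrane partners held no called gene among 11 tested, with a median log2 fold change of -0.17. Of these 11, 6 had an unadjusted p under 0.05, against 34.0% of all genes tested, and the difference was not tested. Slc27a4, a relative of Slc27a1, was at 48.0 to 64.0 CPM on ND and at 38.9 to 47.3 CPM on HFD without overlap (log2 fold change -0.45, adjusted p = 0.0794). For Scarb1, the receptor related to Cd36, the value was -0.52 (adjusted p = 0.0874), and by DESeq2 it passed as lower (adjusted p = 0.0397). Its sign was opposite to that of Cd36.

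Of 9 fatty acid binding proteins besides Fabp4, 4 could be tested. All 4 had positive log2 fold changes, with a median of 1.76, and 1 passed. Fabp7, the brain type, was scarce, with 10, 10 and 3 counts on ND against 84, 39 and 151 on HFD (log2 fold change 3.62, adjusted p = 0.0157). Its ND counts alone would not have passed the filter on low counts. A positive value of Fabp7 was thus favoured beforehand and adds nothing to the count of signs. Fabp12, also tested, was scarce too, with 4, 4 and 13 counts on ND against 12, 25 and 9 on HFD. Its ND counts alone would not have passed the filter either. The count of signs and the median are therefore not a result about the list. Fabp5, which adipocytes and macrophages share, measured 221, 302 and 161 CPM on ND against 435, 291 and 674 CPM on HFD. HFD replicate 2 fell below ND replicate 2, so the diets overlapped, and the difference of 1.03 on the log2 scale (standard error 0.35) missed the threshold (edgeR adjusted p = 0.0864) but passed by DESeq2 (adjusted p = 0.0200) and without HFD replicate 2 (1.29, adjusted p = 0.0253). Without HFD replicate 3, its highest library, the value was 0.65 (adjusted p = 0.197). In HFD replicate 3 Fabp4 was at its lowest and Fabp5 at its highest. Acsl5, a relative of Acsl1, rose without overlap from 63.4 to 72.0 CPM in the ND libraries to between 101 and 119.7 CPM in the HFD libraries (log2 fold change 0.66, adjusted p = 0.0150), with 404 bases of exon shared with Zdhhc6 on the opposite strand. Acsl4 measured 36.6 ± 5.53 and 47.0 ± 12.2 CPM (log2 fold change 0.36, adjusted p = 0.260), and without HFD replicate 3 the log2 fold change was 0.12.

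Of 11 tested genes of the lipoprotein receptor family and its adaptors, 1 was higher and 0 lower, with 4 at an unadjusted p under 0.05. Over all genes tested, 9.85% were higher, 6.04% lower and 34.0% at an unadjusted p under 0.05. Lrp12, a less studied member of the family, measured 22.5 ± 1.08 and 55.1 ± 26.6 CPM (SD, n = 3, log2 fold change 1.29, adjusted p = 0.0344). Like Lrp1, it had narrow ND values and was highest in HFD replicate 3, at 85.4 CPM. Without that library its log2 fold change was 0.81 (adjusted p = 0.0110), and with all libraries the call was lost without the filter (adjusted p = 0.0584) and by limma on FPKM (0.0550 with a pseudocount of 1).

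A further 3 genes, chosen after their values were seen, were high in the ND library that held the epithelium markers. In ND replicate 3, Acsbg1 (an acyl-CoA synthetase, log2 fold change -4.53, adjusted p = 0.0819) stood at 73.1 CPM, against at most 4.32 CPM elsewhere. Lrp2 (a receptor of epithelia, log2 fold change -1.84, adjusted p = 0.246) was at 80.9 CPM in ND replicate 3 and at 5.16 to 11.02 CPM in the other libraries. Slc27a2, which did not pass the filter, was at 10.4 CPM there and at no more than 0.058 CPM in any other library.

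Neither the transcription factors nor the genes of endothelial passage held a called gene. The 5 transcription factors that act on these genes, Pparg, Rxra, Cebpa, Ppara and Ppard, all had negative log2 fold changes, with a median of -0.63. Of these 5, 3 had an unadjusted p under 0.05, against 34.0% of all genes tested. Pparg, the nuclear receptor that drives Lpl, Cd36 and Fabp4 in adipocytes, held 300.2, 235 and 269.7 CPM on ND against 174, 235 and 110.5 CPM on HFD. HFD replicate 2 was level with ND replicate 2, and the log2 fold change of -0.63 (standard error 0.27, 95% interval -1.27 to 0.00) did not pass (edgeR adjusted p = 0.149), but passed without HFD replicate 2 (-0.91, adjusted p = 0.0287). Without HFD replicate 3, its lowest library, the value was -0.41 (adjusted p = 0.195). Among 5 genes of fatty acid passage through the endothelium, 4 had negative values, 1 had an unadjusted p under 0.05 and the median was -0.30.

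**Figure D5:**
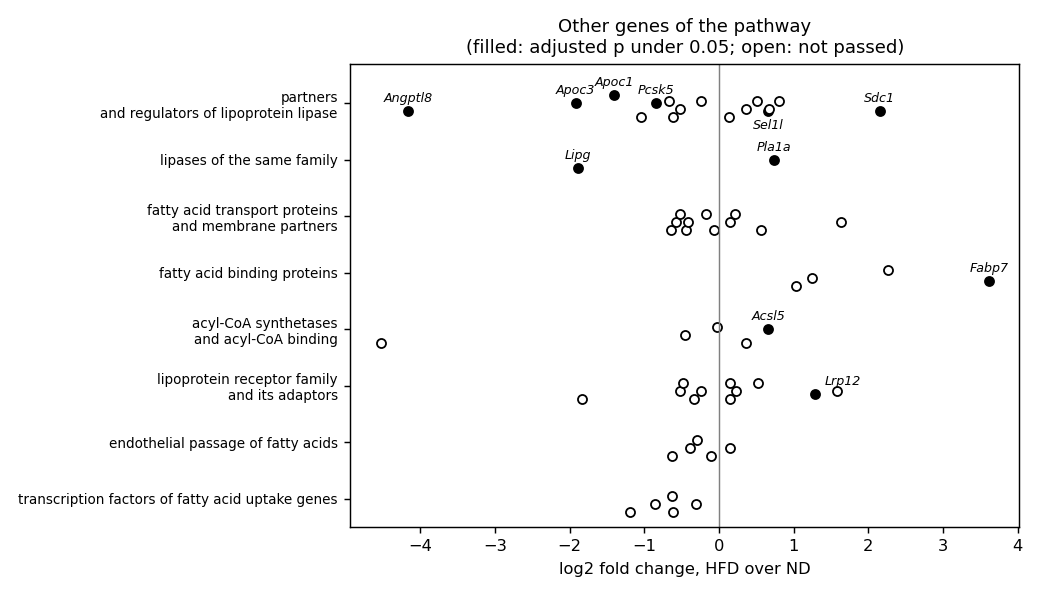
Log2 fold change on HFD over ND (horizontal axis) of the 59 other pathway genes tested, by list, with genes past an adjusted p under 0.05 filled and named. The 6 higher and 5 lower genes are spread over 5 of the 8 lists, from Angptl8 at -4.17 to Fabp7 at 3.62.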

How the data were processed

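RNA-Seq libraries were made from the epididymal fat of mice on ND (3 libraries) or HFD (3 libraries) with TRIzol and the NEBNext Ultra RNA kit. The authors deposited raw read counts per gene and FPKM values for the same libraries. Their paper names TopHat and Cufflinks with GRCm38, whereas the submitters' processing notes name CASAVA 1.8, fastp, HISAT2 2.0.5, featureCounts 1.5.0-p3, DESeq2 1.20.0 and the human build GRCh38. The identifiers are those of mouse genes, and 54495 of 54532 were found in GENCODE M21 (GRCm38), from which names and coordinates were taken. The annotation release and the strand setting of counting are not given in the sources used here. Subcutaneous fat was not analysed here.

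Counts were tested with edgeR 4.0.16 in R 4.3.3 (filterByExpr, TMM, glmQLFit with robust=TRUE, quasi-likelihood F-test) on 15751 genes with diet as the only factor, and p-values were adjusted by Benjamini-Hochberg over all of them. Unless another tool is named, an adjusted p is edgeR's. The standard error was derived from the F statistic. CPM used the TMM-scaled totals, and count intervals and floors cover counting error only. Alternatives were DESeq2 1.42.0, limma-voom and limma 3.58.1 on log2(FPKM + pseudocount), other scalings and filters, a replicate block and each library left out. The method was tested on simulated data. Libraries of the same diet differed by more than sampling noise (chi-square per gene 19.1 or more).

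All members were named, with the called genes of each pathway list up to 4 and fixed paralogs and partners. The members and lists were chosen with earlier results of these data known. Tusc5 was matched as Trarg1. Some results are not reported here, and the genes they concern were left out of the lists and their counts.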

Additional observations from a re-analysis of the deposited data

How the results depend on the processing

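Each member was refitted under 17 alternatives, and 161 of the 170 member fold changes kept both their direction and their side of the threshold. Of the others, 5 lost the call, all for Lrp1, 3 gained one and 1 changed sign. The cause was not tested. The number of members higher on HFD was 1 as reported, 2 with DESeq2 and 0 by limma on FPKM without a filter (Lrp1, adjusted p = 0.0652), and 0 to 2 when each library was left out. The number lower was 0 to 1 when each library was left out. For the other pathway genes the number higher was 6, and was 11 with DESeq2, 2 by limma on FPKM without a filter and 0 to 13 when each library was left out. The number lower was 5, and was 12 with DESeq2, 3 by limma on FPKM with a pseudocount of 1, 0 on FPKM without a filter and 0 to 14 when each library was left out. Leaving out a library leaves 2 samples in that diet.

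Libraries with the same number in both diets are from different mice, and their deviations from the diet means correlated by -0.05, -0.02 and 0.00, so the numbers do not pair the samples. With the replicate block, 1 member was higher (Lrp1, adjusted p = 0.0498) and 0 lower, and 5 other pathway genes were higher and 2 lower. Angptl8 (adjusted p = 0.0727), Apoc3 (0.0687), Lrp12 (0.0573), Lipg (0.0554) and Fabp7 (0.0521) lost their calls with it.

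Some values near 0 changed sign when each library was left out. Acsl1 was -0.021 to 0.31, the log2 ratio of Gpihbp1 to Lpl -0.21 to 0.15 and that of Gpihbp1 to the endothelial markers -0.033 to 0.060. For Lmf1, with 302 to 480 counts per library, and for Apoc3, Lipg and Fabp7, all with 151 counts or fewer, counting error adds to the spread between samples.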
